A study of Mus musculus with 23 samples.

Results

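Monocytes are drawn from blood into inflamed tissue and tumours by small secreted proteins, and 9 genes of this system were followed in mouse prostate tumours exposed to IL-27. They are the 4 chemokines of the monocyte chemoattractant (MCP) type, Ccl2, Ccl7, Ccl8 and Ccl12, the 2 macrophage inflammatory protein (MIP-1) chemokines Ccl3 and Ccl4, the growth factor gene Csf1, and the receptor genes Ccr1 and Ccr2. They were picked out of the deposited table by symbol, as a set drawn up with earlier results of these data known, and make up 9 of the 55401 gene identifiers in the deposited table. All 9 passed the filter on low counts, as did 24440 genes in all.

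CC chemokines bind G protein-coupled receptors on leukocytes and steer their migration. In the mouse, CCR2 on classical monocytes recognises MCP-type ligands such as CCL2 and CCL7. It is needed for the exit of these cells from bone marrow, while CCR1 is among the receptors that recognise MIP-1 ligands. CSF1 acts through its receptor CSF1R and sustains the survival and maturation of monocytes and macrophages. In tumours, such ligands can come from cancer cells, fibroblasts, endothelium and the myeloid cells themselves.

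The study used 23 bulk RNA-seq libraries from subcutaneous flank tumours of male C57/BL6 mice aged 8 to 10 weeks. Every tumour was grown from TC2Ras, a single line derived from TRAMP-C2 mouse prostate adenocarcinoma cells by a lentivirus that carries an activated H-ras. One arm received the pTSTA-IL27pepL plasmid (11 libraries, written IL27v), which carries IL-27 with a short peptide (pepL) behind a linker, and the other received the empty pTSTA-ctrl plasmid (12 libraries, written EV). Plasmid (10 µg per muscle) went into the tibialis anterior muscle with microbubbles and ultrasound, so the tumour cells themselves were not the stated target of the transgene. Tumours from each arm were then exposed ex vivo to cabozantinib (a kinase inhibitor that acts on MET and VEGF receptors), docetaxel (a microtubule poison), IL-27, an antibody against PD-L1, or the combination of cabozantinib with IL-27, or were kept in media alone. There are 12 groups of 2 libraries each, except that a single library represents IL27v tumours given IL-27 ex vivo. No label ties a library to a separate animal, so p-values describe the spread between these libraries, which may be technical. By their own account the submitters sequenced to find stronger T-cell components in the IL-27 treated tumours.

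The members lie in 3 places in the genome (GRCm38, GENCODE annotation). The MCP-type genes form a run on the plus strand of chromosome 11, in the order Ccl2 (chr11:82035571-82037453), Ccl7 (chr11:82045712-82047525), Ccl12 (chr11:82101845-82103400) and Ccl8 (chr11:82115185-82116799), with the eosinophil chemokine gene Ccl11 between Ccl7 and Ccl12. Further along the same chromosome are Ccl3 on the minus strand (chr11:83647844-83649355) and Ccl4 on the plus strand (chr11:83662584-83664683). Csf1 is on the minus strand of chromosome 3 (chr3:107741048-107760469). Ccr1 (minus strand, chr9:123962124-123968692) and Ccr2 (plus strand, chr9:124101950-124113557) share a chromosome. Their identifiers in the deposited table are ENSMUSG00000035385 for Ccl2, ENSMUSG00000035373 for Ccl7, ENSMUSG00000009185 for Ccl8, ENSMUSG00000035352 for Ccl12, ENSMUSG00000000982 for Ccl3, ENSMUSG00000018930 for Ccl4, ENSMUSG00000014599 for Csf1, ENSMUSG00000025804 for Ccr1 and ENSMUSG00000049103 for Ccr2. Ccl2 overlaps Gm17268 on the opposite strand, which had 0 counts in all 23 libraries.

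Ccl8 and Ccl12 are the members that met the significance threshold in a comparison below, in different settings, and their start sites lie in the same run of genes, so both promoters are shown. Each sequence runs 5′ to 3′ on the plus strand from 250 bases before the start site to 50 bases after it, taken from RefSeq on GRCm38.p6, and capitals mark a TATAAA match. The windows are chr11:82114935-82115234 for Ccl8 and chr11:82101595-82101894 for Ccl12.
Ccl8: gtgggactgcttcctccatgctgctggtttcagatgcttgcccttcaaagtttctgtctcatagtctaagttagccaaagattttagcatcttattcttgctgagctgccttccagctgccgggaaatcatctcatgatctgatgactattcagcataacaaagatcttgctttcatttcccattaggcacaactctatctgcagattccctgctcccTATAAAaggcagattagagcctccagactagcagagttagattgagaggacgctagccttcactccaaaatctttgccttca
Ccl12: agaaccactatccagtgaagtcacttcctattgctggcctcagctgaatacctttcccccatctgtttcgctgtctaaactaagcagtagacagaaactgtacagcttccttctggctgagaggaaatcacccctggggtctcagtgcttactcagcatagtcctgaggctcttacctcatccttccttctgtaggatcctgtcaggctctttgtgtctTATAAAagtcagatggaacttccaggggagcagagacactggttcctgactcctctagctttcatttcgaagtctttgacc
The match begins at position -32 from the start in Ccl8 and at -31 in Ccl12, on the plus strand. RefSeq windows were matched for 6 of the 9 members, namely Ccl8, Ccl12, Ccl3, Csf1, Ccr1 and Ccr2, and not for Ccl2, Ccl7 and Ccl4. TATAAA occurred in 2 of these 6, against 13.6% of 32851 promoters of the same length, searched on both strands. An NF-kB consensus was found in Csf1 (GGAAAGTCCC on the strand opposite the gene, from -154) and in Ccr1 (GGGAGGCTCC, from -74), where 8.46% of all promoters held one. The AP-1 letters TGANTCA (7.81% of promoters), the STAT letters TTCNNNGAA (8.3%) and an interferon-stimulated response element (3.44%) had no match in the 6 windows. No window held more than 1 of these motifs, and they are letter matches only.

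Libraries held 47641781 to 83088346 counts, and 1 CPM (counts per 1000000, scaled with TMM) stood for 36.3 to 86.5 counts. The libraries fell into sets by transcripts of the neutrophil granule gene Ngp and of 13 skeletal muscle genes. In 9 EV libraries (set A) Ngp was under 5 CPM and the muscle sum under 100 CPM. Another 5 libraries exceeded both limits (set B: both IL27v media, both EV cabozantinib plus IL-27 and EV anti-PD-L1 2). A further 8 IL27v libraries had muscle transcripts without Ngp (set C). IL27v docetaxel 1, with a muscle sum of 29.8 CPM, was put in no set by choice and not by these limits. With it set apart, no ex vivo condition has both vectors in the same set, so vector and set cannot be told apart. Among epithelial and prostate markers, Pbsn had 0 counts in every library and Krt18 reached 2.51 CPM. Krt8 ranged from 1.21 to 122 CPM, Epcam from 0 to 18.7 and Cdh1 from 0 to 92.2 CPM, so transcripts of the prostate secretory gene Pbsn were not detected in tumours labelled prostate adenocarcinoma. In bulk tissue, fewer cells of a type and less RNA per cell cannot be told apart.

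Per kilobase of exon, which allows levels to be set side by side between genes, Ccl2 was the most abundant member, with a median of 131 CPM per kb over the 23 libraries. Ccl7 followed at 56.4 and Csf1 at 25.4 CPM per kb. Ccl3 had a median of 11.3, Ccl8 of 9.66, Ccr1 of 6.28, Ccl12 of 4.93 and Ccl4 of 4.87 CPM per kb. Ccr2, a receptor of MCP-type ligands such as CCL2, was the lowest at 0.56 CPM per kb. The ligands thus spanned a wide range of transcript levels, and the library-to-library range within a gene was wide as well, from 5.82-fold for Csf1 to 144-fold for Ccl8 between the highest and the lowest library.

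A single library, IL27v media 2, was the highest of the 23 for each of the 9 members. By group mean, IL27v media ranked first of the 12 groups for 7 members and IL27v cabozantinib plus IL-27 for Ccl2 and Csf1, while EV media ranked last for Ccl2, Ccl7, Ccl8 and Ccr2. Of the 11 pairs of neighbouring groups in each order, 8 (Ccr1) to 11 (Ccl3 and Ccr2) overlapped in their libraries. Relative to its replicate IL27v media 1, IL27v media 2 was 2.37-fold (Ccr1) to 38.7-fold (Ccl8) higher, and relative to the next highest library of each gene 1.15-fold (Ccr2) to 3.59-fold (Ccl3) higher. Its replicate was the lowest of all 23 libraries for Ccl2, at 46.2 CPM, and for Csf1, at 68.5 CPM. The 2 libraries of this group therefore bracket the whole range of those members, and every contrast that uses IL27v media includes that spread. IL27v media 2 also had the highest sum over 6 inflammatory monocyte markers, 470 CPM against 44.5 CPM in its replicate, and the highest sum over 8 fibroblast markers, 8493 against 2068 CPM. Whether those transcripts and the chemokines share a source was not tested.

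**Figure D1:**
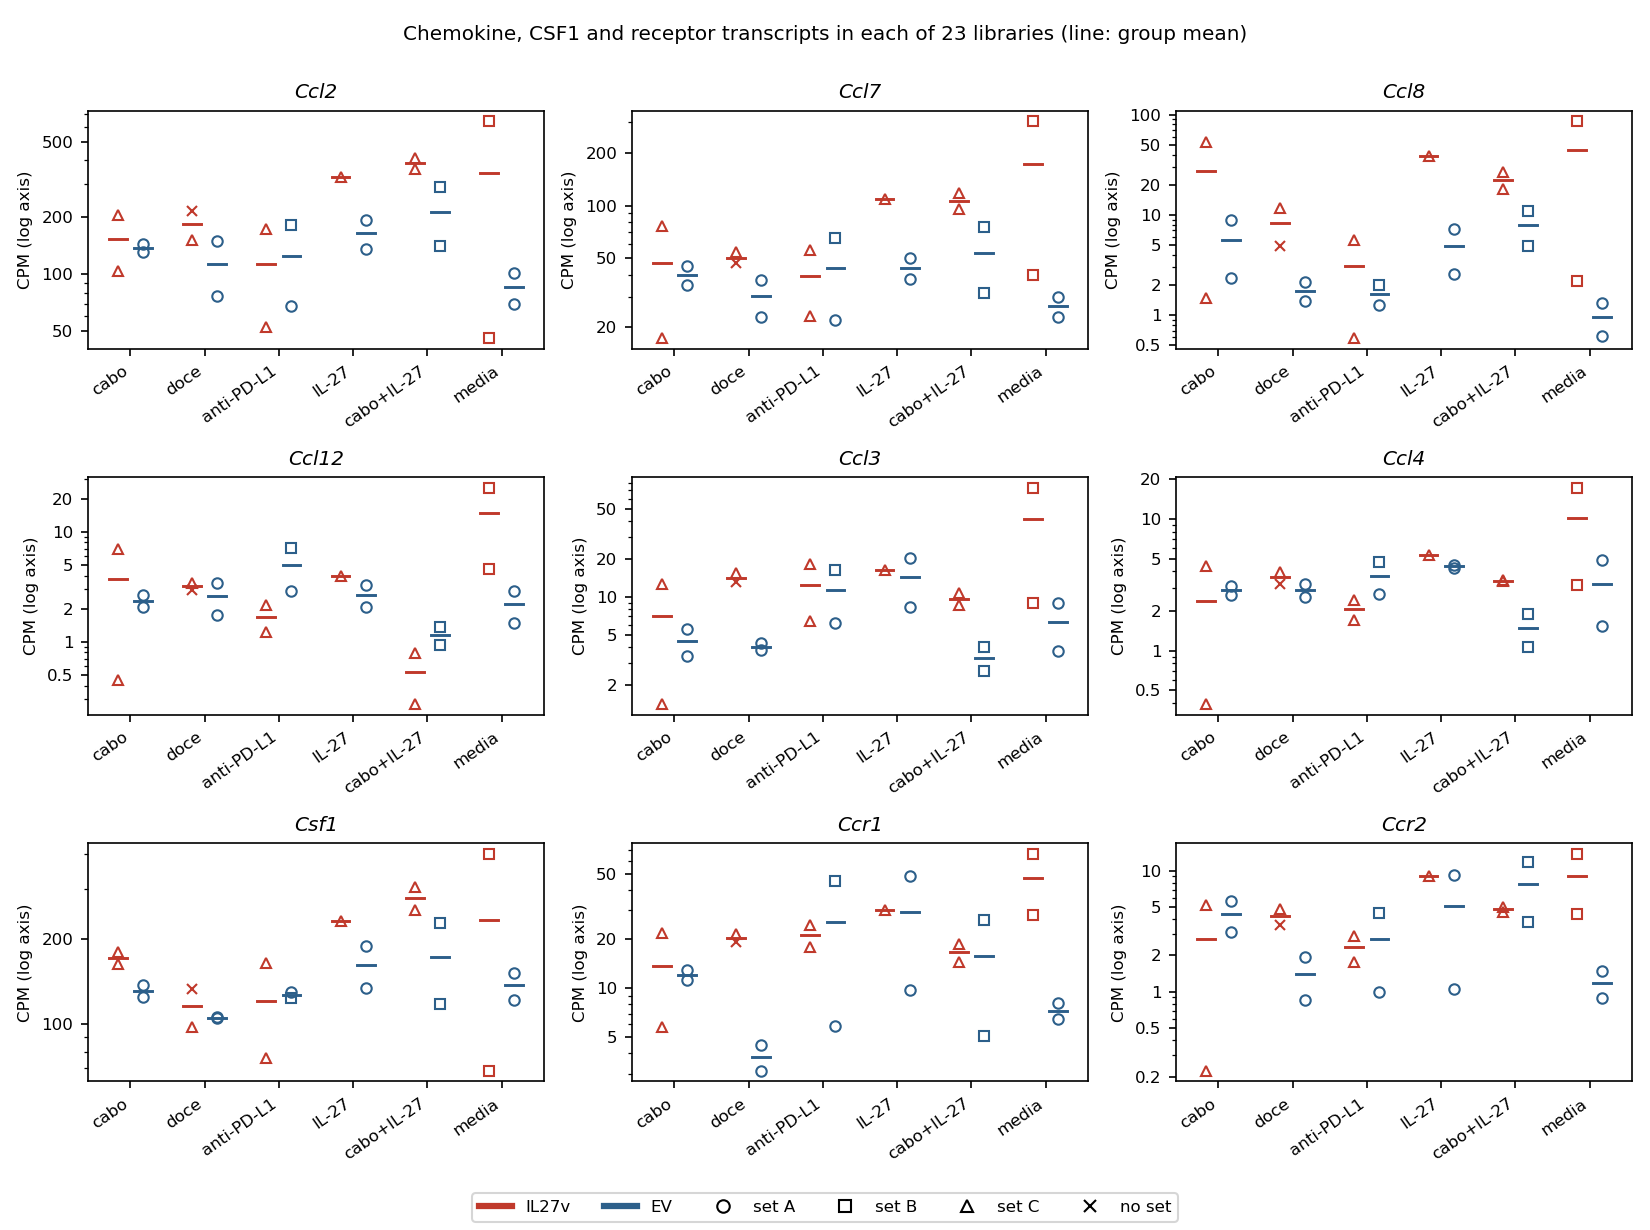
Level of each member in CPM (TMM-scaled, log axis) in each library, by ex vivo condition, with IL27v in red left of EV in blue, symbols for the library sets and a line at each group mean (cabo, cabozantinib; doce, docetaxel). The highest point of every panel is IL27v media 2, for example 639 CPM for Ccl2 and 85.8 CPM for Ccl8, and Ccl12 has its lowest group mean in IL27v cabozantinib plus IL-27, with libraries at 0.271 and 0.784 CPM.

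Whether tumours of animals given the IL-27 vector held more of these transcripts was asked first. The IL-27 vector was compared with the empty vector as the mean of the differences within the 6 ex vivo conditions. Ccl8, whose product MCP-2 attracts monocytes and other leukocytes (in the mouse by way of CCR8), was the only member that rose. The other 8 members also had positive differences, between 0.26 and 1.18 on the log2 scale, without passing the threshold. With an adjusted p under 0.05 as the threshold for a call, this comparison called 722 of all tested genes (558 higher, 164 lower), or 2.95%, so 1 called member of 9 is read against that share. The members' median difference was 0.759 on the log2 scale, against 0.011 over all genes, and 51% of all genes had a positive difference.

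Ccl8 had 1.47 and 53.4 CPM in IL27v tumours with cabozantinib, 4.94 and 11.8 with docetaxel, 0.594 and 5.64 with anti-PD-L1, 39.1 with IL-27, 26.6 and 18.2 with cabozantinib plus IL-27, and 2.21 and 85.8 in media. In EV tumours it had 8.92 and 2.37 CPM with cabozantinib, 1.38 and 2.14 with docetaxel, 1.26 and 2.02 with anti-PD-L1, 7.31 and 2.57 with IL-27, 4.95 and 10.9 with cabozantinib plus IL-27, and 1.31 and 0.613 in media. The IL27v libraries lay above the EV libraries without overlap in docetaxel, IL-27, cabozantinib plus IL-27 and media, and the vectors overlapped in cabozantinib and anti-PD-L1. Groups hold at most 2 libraries, and how many of all genes separated likewise was not counted. Over the libraries Ccl8 averaged 22.7 ± 27 CPM in IL27v (SD, n = 11) and 3.81 ± 3.42 CPM in EV (SD, n = 12). The log2 difference was 2.58 ± 0.59 (SE), with an adjusted p of 0.025 by the edgeR quasi-likelihood test with Benjamini-Hochberg adjustment.

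The Ccl8 call was not stable to the choice of libraries. It was lost on leaving out, in turn, IL27v media 2, IL27v cabozantinib 2, IL27v anti-PD-L1 2, EV media 1 or 2, EV cabozantinib 2, EV docetaxel 1 or 2, EV cabozantinib plus IL-27 1 or 2, or EV anti-PD-L1 1, with edgeR adjusted p between 0.052 and 0.074. The log2 difference stayed between 1.86 (without IL27v media 2) and 2.74 over the 23 libraries left out. Without the set B libraries, which leaves out media and cabozantinib plus IL-27, it was 2.17 ± 0.72 (edgeR adjusted p 0.19), and without the 4 media libraries 1.96 ± 0.56 (adjusted p 0.068). With library set as a model term it was 4.37 ± 1.77 (adjusted p 1), in a fit that called 0 genes of any kind, and with the macrophage marker sum as a term the SE was 0.54 and the adjusted p 0.046.

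Ccl2 encodes MCP-1, the main CCR2 ligand. Its lowest, median and highest levels were 46.2, 204 and 639 CPM over the IL27v libraries, and 68.3, 138 and 287 CPM over the EV libraries. The vectors overlapped, and 8 of 11 IL27v libraries were above the EV median. The log2 difference was 0.76 ± 0.34 (edgeR adjusted p 0.3), and 0.28 ± 0.24 (adjusted p 0.8) without IL27v media 2.

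Ccl7, which encodes MCP-3, a ligand of CCR2 and CCR1, ranged from 17.4 to 304 CPM in IL27v (median 55.9) and from 22 to 75.5 CPM in EV (median 36). The ranges overlapped, and 9 of 11 IL27v libraries exceeded the EV median. Its log2 difference was 0.97 ± 0.32 (edgeR adjusted p 0.13). It passed the threshold with DESeq2 (0.96, adjusted p 0.036) and without IL27v media 1 (1.06, edgeR adjusted p 0.038). Ccl12, the mouse gene for MCP-5, which has no direct human counterpart, ranged from 0.271 to 25.1 CPM in IL27v (median 2.98) and from 0.927 to 7.16 CPM in EV (median 2.37). It had the smallest difference of the 9, 0.26 ± 0.40 on the log2 scale (edgeR adjusted p 1), which turned to -0.02 without IL27v media 2 and to -0.24 without IL27v cabozantinib 2.

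Neither gene of the MIP-1 pair was called. Ccl3, which encodes MIP-1 alpha, had 1.4 to 73.4 CPM in IL27v (median 12.6) and 2.58 to 20.5 CPM in EV (median 4.92). In 10 of 11 IL27v libraries Ccl3 was above the EV median, and the exception was IL27v cabozantinib 1. Its log2 difference was 1.18 ± 0.38 (edgeR adjusted p 0.12), with a DESeq2 adjusted p of 0.026. Without IL27v media 1 the edgeR adjusted p was 0.047, and without IL27v cabozantinib 1 it was 0.046. Ccl4, which encodes MIP-1 beta, had 0.392 to 17.2 CPM in IL27v (median 3.37) and 1.07 to 4.89 CPM in EV (median 2.88). Its log2 difference was 0.39 ± 0.36 (edgeR adjusted p 0.8), and turned to -0.04 without IL27v cabozantinib 2 and to -0.05 without the set B libraries. Within libraries the ratio of Ccl3 to Ccl4 transcripts was 2.57 to 7.51 in IL27v and 1.28 to 4.83 in EV. The overlap came from EV IL-27 2 (4.83) and EV anti-PD-L1 2 (3.5), and all other EV libraries lay below every IL27v library. This ratio was not tested.

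Csf1, the growth factor of the macrophage lineage, had the narrowest range of the members. It had 68.5 to 399 CPM in IL27v (median 165) and 105 to 227 CPM in EV (median 128), and its log2 difference was 0.40 ± 0.23 (edgeR adjusted p 0.47). Ccr1, a receptor for MIP-1 and some MCP-type ligands, had 5.76 to 66.3 CPM in IL27v (median 21.6) and 3.13 to 48.8 CPM in EV (median 8.92). In 10 of 11 IL27v libraries Ccr1 exceeded the EV median, and the log2 difference was 0.86 ± 0.37 (edgeR adjusted p 0.28). Ccr2 had 0.224 to 13.7 CPM in IL27v (median 4.55) and 0.862 to 11.9 CPM in EV (median 2.51), with a log2 difference of 0.62 ± 0.46 (edgeR adjusted p 0.68). For all 3 genes the libraries of the vectors overlapped.

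**Figure D2:**
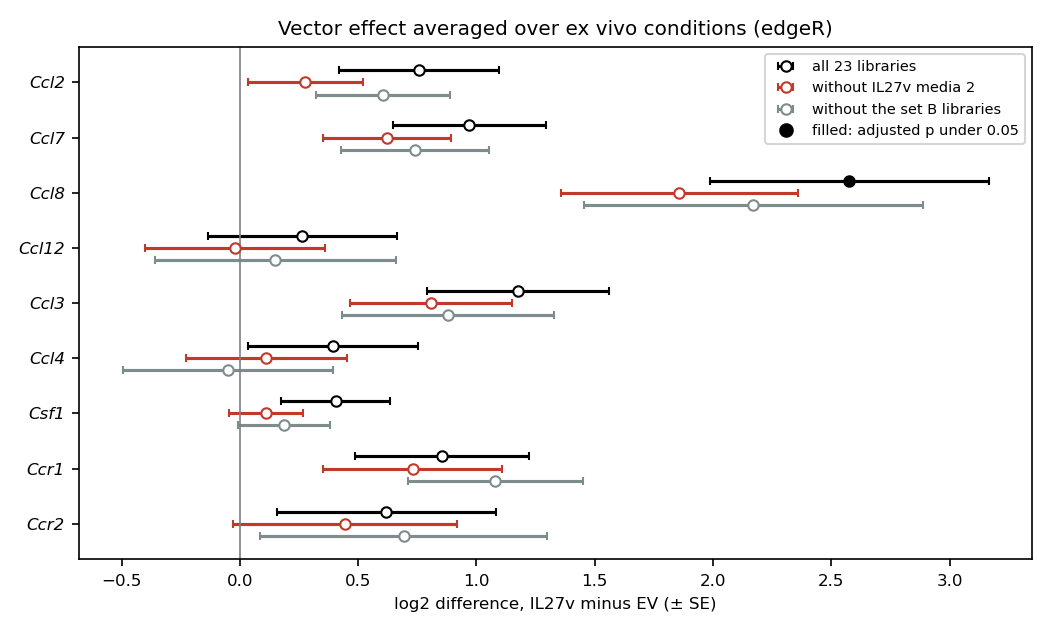
Log2 difference of each member, IL27v minus EV averaged over the 6 ex vivo conditions (points, bars ± SE), with all 23 libraries in black, without IL27v media 2 in red and without the 5 set B libraries in grey. Filled points have an edgeR adjusted p under 0.05: Ccl8 with all libraries, at 2.58, is the only filled point, and Ccl12 is at 0.26 with all libraries and at -0.02 without IL27v media 2.

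Within single ex vivo conditions no member passed the threshold. The shares of all tested genes called were 0% in cabozantinib, anti-PD-L1, IL-27 and media, 0.27% in docetaxel and 0.00409% in cabozantinib plus IL-27. In media the 9 members were all higher in IL27v, by 0.77 (Csf1) to 5.52 (Ccl8) on the log2 scale with a median of 2.7, and 7 had an unadjusted edgeR p under 0.05, as did 2209 of the 24440 genes (9.04%). At the same unadjusted level 1 member differed in docetaxel (Ccr1) and 0 in each of the other 4 conditions. Of all genes, 10% reached that level in docetaxel and 2.67 to 6.08% in those other 4. Ccl8 was at 2.21 and 85.8 CPM in IL27v media and at 1.31 and 0.613 CPM in EV media, a log2 difference of 5.52 ± 1.62 that did not pass (edgeR adjusted p 0.24). DESeq2 called Ccl7 (2.66, adjusted p 0.02), Ccl8 (5.48, adjusted p 0.0076) and Ccr1 (2.66, adjusted p 0.046) in media. Its calls over all genes in media were not counted, so these have no share beside them. In docetaxel and in IL-27 all 9 differences were positive, with medians of 0.74 and 0.585, and in anti-PD-L1 2 of 9 were, with a median of -0.147. Ccl8 had the largest positive difference of the members in media, cabozantinib, anti-PD-L1 and IL-27, at 2.28 in cabozantinib and 2.98 in IL-27, and Ccr1 had it in docetaxel, at 2.42 ± 0.92 (edgeR adjusted p 0.35). In anti-PD-L1 the difference farthest from 0 was that of Ccl12, at -1.57 ± 0.96 (edgeR adjusted p 1), against 0.93 ± 1.36 for Ccl8 (adjusted p 1).

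The exposures were then set against media within each vector. In EV tumours, where both media libraries and 7 of the 10 exposed libraries belong to set A, no member was called for any exposure. Both cabozantinib plus IL-27 libraries belong to set B, so for this combination exposure and set cannot be told apart in EV tumours either. EV anti-PD-L1 2 is also in set B. The shares of all genes called were 0% for cabozantinib, docetaxel, anti-PD-L1 and IL-27, and 0.00409% for cabozantinib plus IL-27. At an unadjusted edgeR p under 0.05, 0, 0, 0, 1 and 1 members differed for these 5 exposures in the same order. Of all genes, 1.82, 2.94, 1.41, 5.21 and 3.92% reached that level. DESeq2 called 0 members, and 16, 30, 26, 33 and 126 of all genes for these exposures in the same order. These contrasts share the 2 EV media libraries.

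Ccl8 had the largest positive differences of the 9 members in EV tumours for cabozantinib, IL-27 and the combination. Its levels of 8.92 and 2.37 CPM with cabozantinib, 7.31 and 2.57 CPM with IL-27, and 4.95 and 10.9 CPM with both agents stood against 1.31 and 0.613 CPM in EV media. No exposed library of these groups overlapped the media libraries, though the combination libraries also differ from media in set. The log2 differences were 2.56 ± 1.43 for cabozantinib, 2.36 ± 1.42 for IL-27 and 3.05 ± 1.46 for the combination, and none passed (edgeR adjusted p 1, 0.68 and 1).

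Ccr2 had 5.66 and 3.10 CPM with cabozantinib, 1.06 and 9.23 CPM with IL-27 and 3.78 and 11.9 CPM with the combination in EV tumours, against 0.884 and 1.48 CPM in EV media. The combination libraries lay above both media libraries, and the IL-27 libraries did not both do so. The log2 difference was 2.73 ± 1.16 for the combination (edgeR adjusted p 1) and 2.12 ± 1.14 for IL-27 (adjusted p 0.68). Ccr1 had 9.71 and 48.8 CPM with IL-27 in EV tumours, against 6.46 and 8.13 CPM in EV media, a log2 difference of 2.00 ± 0.90 (edgeR adjusted p 0.68). The macrophage and monocyte marker sum was 867 and 887 CPM in the same EV IL-27 libraries, against 352 and 332 CPM in EV media, and its part in the receptor values was not tested. Csf1 stayed within -0.37 and 0.33 of media on the log2 scale in all 5 EV contrasts, none of them called.

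In IL27v tumours the exposed libraries belong to set C, apart from docetaxel 1, while both media libraries belong to set B, so exposure and set cannot be told apart there. The shares of all genes called were 1.88% for cabozantinib, 2.79% for docetaxel, 0.867% for anti-PD-L1, 0% for IL-27 and 0.904% for cabozantinib plus IL-27. The only member called was Ccl12, with the combination, but Ccl12 was below media for all 5 exposures. Its log2 difference was -2.004 for cabozantinib, -2.22 for docetaxel, -3.13 for anti-PD-L1, -1.89 for IL-27 and -4.81 for the combination. For anti-PD-L1 the edgeR adjusted p was 0.19, and DESeq2 called Ccl12 there (-3.125, adjusted p 0.019). The fall against these media libraries was thus not particular to the combination. The medians over the 9 members were -1.78, -1.5, -1.95, -0.65 and -0.974 on the log2 scale for the 5 exposures in that order, against 0, 0, -0.039, -0.021 and 0 over all genes. These contrasts share the IL27v media libraries, whose second replicate is the highest of the series for every member.

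**Figure D3:**
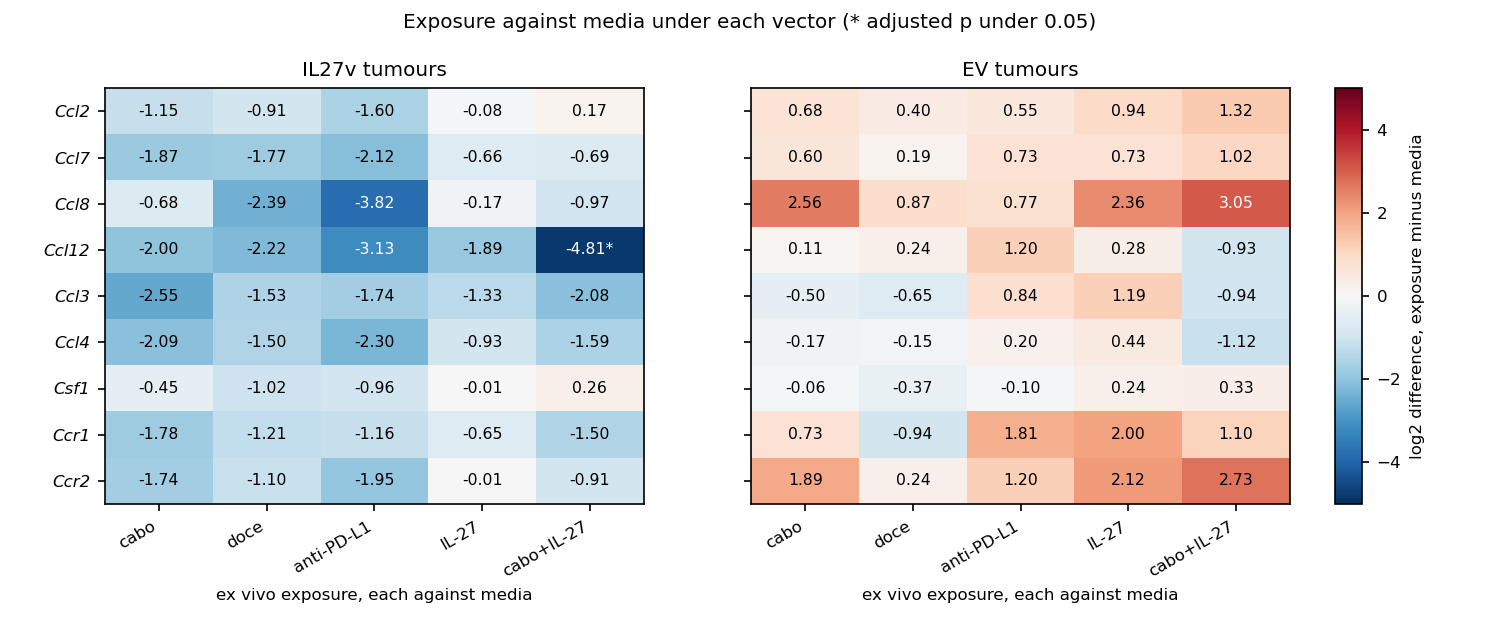
Log2 difference of each member for each ex vivo exposure against media, in IL27v tumours (left) and EV tumours (right), on one colour scale (cabo, cabozantinib; doce, docetaxel; an asterisk marks an edgeR adjusted p under 0.05). The only asterisk is on Ccl12 with cabozantinib plus IL-27 in IL27v tumours, at -4.81, and the highest EV value is Ccl8 with the same exposure, at 3.05.

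Ccl12 had 0.271 and 0.784 CPM in IL27v tumours exposed to cabozantinib plus IL-27, against 4.55 and 25.1 CPM in IL27v media. The groups did not overlap, and the log2 difference was -4.81 ± 1.10 (edgeR adjusted p 0.049). In EV tumours the same exposure gave 1.37 and 0.927 CPM, against 2.90 and 1.48 CPM in EV media. These groups did not overlap either, with a log2 difference of -0.93 ± 0.95 that did not pass (edgeR adjusted p 1), and they too differ in set. Averaged over both vectors, the log2 difference of Ccl12 was -2.87 ± 0.71 (edgeR p 0.00089, adjusted p 0.88), and DESeq2 gave -2.89 with an adjusted p of 0.013.

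The edgeR call of Ccl12 in IL27v tumours was lost on leaving out 17 of the 23 libraries in turn (adjusted p between 0.051 and 0.38), and kept without IL27v cabozantinib 1 or 2, EV IL-27 1 or 2, or EV anti-PD-L1 1 or 2. Without IL27v media 2 the log2 difference was -3.11 ± 1.05 (edgeR adjusted p 0.13), and with RLE size factors in place of TMM the adjusted p was 0.053. The neutrophil marker sum was 1.55 and 0.508 CPM in the IL27v combination libraries, against 54.8 and 47.1 CPM in IL27v media, and the inflammatory monocyte sum was 118 and 123 CPM against 44.5 and 470 CPM. None of the 10 neutrophil or 6 inflammatory monocyte markers was called in this contrast, and their part in the Ccl12 result was not tested.

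No other MCP-type gene was called in this contrast. Ccl7 had a log2 difference of -0.69 ± 0.77 (edgeR adjusted p 0.8) and Ccl8 of -0.97 ± 1.34 (adjusted p 0.87). Ccl2 had 410 and 360 CPM in the IL27v combination libraries, against 46.2 and 639 CPM in IL27v media, a log2 difference of 0.17 ± 0.80 (edgeR adjusted p 1). Without IL27v media 2 that difference was 3.06 ± 0.80 (adjusted p 0.042). Csf1 had 306 and 254 CPM against 68.5 and 399 CPM, with a log2 difference of 0.26 ± 0.54 (edgeR adjusted p 0.96), and of 2.03 ± 0.49 (adjusted p 0.027) without IL27v media 2. The direction against media thus rests for both on which media replicate is used. The 2 combination libraries were close to each other, at 385 ± 35.4 CPM for Ccl2 and 280 ± 36.5 CPM for Csf1 (SD, n = 2), and these were the highest group means of both genes.

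The ratio of Ccl2 to Ccl12 transcripts in a library uses no media library. In IL27v tumours with the combination, Ccl2 had the highest and Ccl12 the lowest mean of the 12 groups. A high ratio there therefore restates these levels and is not a separate result. The ratio was 1513 and 459 in IL27v tumours with the combination and 102 and 309 in EV tumours with the combination. Over the other 19 libraries it ranged from 10.2 to 232, and the upper end was IL27v cabozantinib 1, in which Ccl12 was at 0.448 CPM. Ccl2 to Ccl7 was less variable, from 1.15 to 5.97 over all 23 libraries, and Ccl2 to Csf1 ranged from 0.524 to 1.62.

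**Figure D4:**
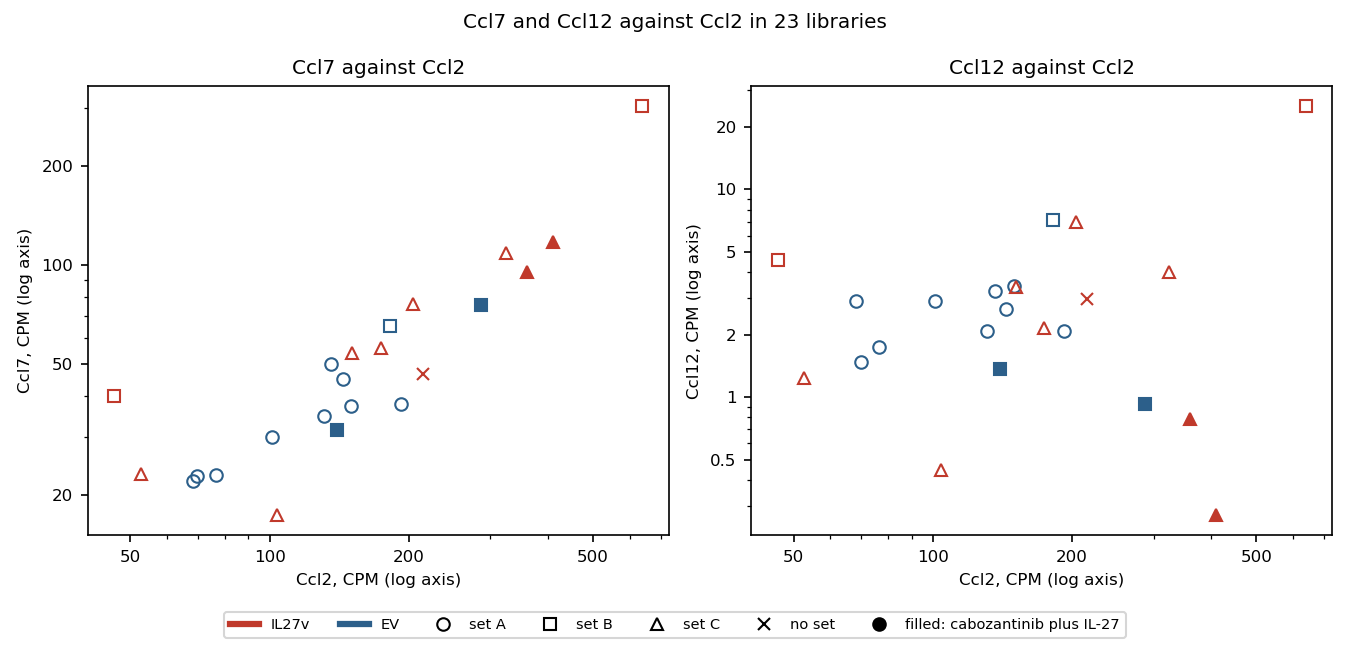
Ccl7 (left) and Ccl12 (right) against Ccl2 in each of the 23 libraries, all in CPM on log axes, with IL27v in red, EV in blue, symbols for the library sets and filled symbols for cabozantinib plus IL-27. Ccl7 follows Ccl2 with a ratio of Ccl2 to Ccl7 between 1.15 and 5.97, while the filled symbols on the right lie low for their Ccl2, with ratios of Ccl2 to Ccl12 of 102 to 1513.

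Averaged over both vectors, no exposure gave a called member. The shares of all genes called were 0% for cabozantinib, anti-PD-L1 and IL-27, 1.79% for docetaxel and 0.00409% for cabozantinib plus IL-27. At an unadjusted edgeR p under 0.05 there was 1 member for cabozantinib (Ccl3, -1.52 ± 0.65, adjusted p 0.46) and 3 for the combination (Ccl12, Ccl3 and Ccl4). Of all genes, 10.5% reached that level for cabozantinib and 4.47% for the combination. For IL-27 the Ccl2 difference was 0.43 ± 0.62 (edgeR adjusted p 0.84), and 1.87 ± 0.50 without IL27v media 2. That fit leaves a single IL27v media library, and its number of calls over all genes differed from the main fit.

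Whether the exposures acted differently under the vectors was tested as an interaction. None of the 45 member values passed (lowest edgeR adjusted p 0.25), while 8 had an unadjusted p under 0.05, a level that 4.14 to 9.59% of all genes reached in the 5 interactions. DESeq2 called Ccl12 for anti-PD-L1 (-4.30, adjusted p 0.045), and its calls over all genes were not counted there. Over all genes, edgeR called 0.0205% for cabozantinib, 0.0205% for docetaxel, 0% for anti-PD-L1 and IL-27, and 1.46% for the combination. All 45 values were negative, and each of them contains the same 4 media libraries, including IL27v media 2.

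Likeness between genes was described within sets, by Pearson's r of log2 CPM over the 9 set A libraries, all EV, and over the 8 set C libraries, all IL27v, which share a tumour line and differ in exposure. Among 13733 genes, those most like Ccl2 were Sod3, an extracellular superoxide dismutase (r 0.893 in set A and 0.939 in set C), the complement gene C3 (0.884 and 0.944) and Ccl7 (0.873 and 0.915). Ccl8 was also near Ccl2 (0.817 and 0.857), whereas Ccl12 was not (0.368 and -0.0023). Csf1 was close to Ccl2 in set C (0.903) and less so in set A (0.452). The genes most like Ccl3 were Galnt17 (0.92 and 0.926), the myeloid inhibitory receptor gene Lilrb4a (0.869 and 0.901) and the glutamine synthetase gene Glul (0.88 and 0.859). Ccl4 (0.723 and 0.897) and Ccr1 (0.691 and 0.941) were nearer to Ccl3 than Ccl2 was (0.322 and 0.454).

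Other genes of the same system were taken as lists and compared between the vectors, where the median of all genes was 0.011 on the log2 scale. In this comparison 2.95% of all tested genes were called, and 2.28% were called higher. The list and marker counts below are read against these shares. Of 15 other CC and CX3C chemokines, 13 were tested, 1 rose and none fell, with a median difference of 0.44. The gene that rose was Ccl11, which lies within the MCP-type run, with 0.602 to 126 CPM in IL27v (median 3.63) and 0 to 14.6 CPM in EV (median 0.58), a log2 difference of 3.45 ± 0.79 (edgeR adjusted p 0.026). Of 13 other receptors none was called (median 0.565), with 3 at an unadjusted p under 0.05, a level that 14.5% of all genes reached. They were Ccr3 at 3.08 ± 0.81 (edgeR adjusted p 0.052), Ccr7 at 1.92 ± 0.54 (0.064) and Ackr1 at 3.07 ± 0.91 (0.086).

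In the colony-stimulating factor axis 1 of 7 genes rose (median 0.792). This was Csf2, which encodes GM-CSF, at 16.9 ± 9.58 CPM in IL27v and 6.84 ± 2.98 CPM in EV (SD, n = 11 and 12), a log2 difference of 1.35 ± 0.29 (edgeR adjusted p 0.019). The CSF1 receptor gene Csf1r differed by 0.39 ± 0.23 (adjusted p 0.5). Among 12 NF-kB feedback genes and upstream cytokines, 2 rose and none fell (median 0.69), namely Il6 at 2.96 ± 0.65 (edgeR adjusted p 0.02) and Il1b at 1.65 ± 0.40 (adjusted p 0.035). Both genes encode inflammatory cytokines, and IL27v media 2 was the highest library for each. It had 125 CPM of Il6 and 59.4 CPM of Il1b, against 2.72 and 5.33 CPM in its replicate IL27v media 1. For Ccl11, IL27v media 2 was also the highest library, at 126 CPM against 1.11 CPM in IL27v media 1. Whether the calls of Ccl11, Csf2, Il6 and Il1b hold on leaving out single libraries was not examined.

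Cell type markers bear on the source of these transcripts, and their part in the member values was not tested. None of 14 macrophage and monocyte markers was called between the vectors, and their summed level was 309 to 997 CPM in IL27v and 247 to 887 CPM in EV. Of 6 inflammatory monocyte markers 1 rose and none fell, all 6 differences were positive (median 1.37), and they summed to 20.7 to 470 CPM in IL27v and 18.8 to 150 CPM in EV. None of 10 neutrophil markers was called (0.508 to 243 CPM in IL27v and 0.162 to 44.9 CPM in EV), and Ngp, Camp, Ltf, Elane, Mpo and Retnlg had a median of 0. None of 8 T and NK cell markers was called (0.452 to 13.6 CPM in IL27v and 0.246 to 11.7 CPM in EV). All 8 of their differences were positive (median 1.75). None of 8 fibroblast markers (1435 to 8493 and 2580 to 5199 CPM) or 6 endothelial markers (22.2 to 255 and 97.1 to 147 CPM) was called. Median differences were -0.0653 for the fibroblast, 0.261 for the endothelial, 0.264 for the macrophage and monocyte, and -0.871 for the neutrophil list. All 13 skeletal muscle genes were higher in IL27v, at a summed 29.8 to 981 CPM against 1.43 to 565 CPM in EV.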

How the data were processed

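Poly(A) RNA-seq libraries of 23 tumour samples, prepared with a stranded kit from RNA with an integrity number of at least 8, were sequenced in pairs. The values are gene-level counts deposited by the authors, as estimated counts per gene. cutadapt, HISAT2, StringTie, DESeq2 and the GRCm38 build are named per the submitters' processing notes. For their versions, and for whether counting used strand, the sources used here give nothing. In the deposited counts, 143 genes had the same nonzero value in all libraries, and 31.7 to 35.3% of the counts between 1 and 40 were multiples of 4, where an even spread gives 25%.

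Counts were rounded and fitted in R 4.3.3 with edgeR 4.0.16 (limma 3.58.1): TMM scaling, filterByExpr, and a quasi-likelihood fit of the 12 groups over all 23 libraries (24440 genes, 11 residual degrees of freedom, median prior 5.75, biological coefficient of variation 0.62). P-values were adjusted over all tested genes by the Benjamini-Hochberg method. A standard error is the log2 difference divided by the square root of F. Groups come from sample titles, since 3 descriptions repeat a line. All 9 members were tested in each comparison, and the text names those its results turn on. From the other lists the called genes are named, or up to 3 with the smallest p, and the 3 genes most like Ccl2 and Ccl3 by the smaller of the 2 correlations. The alternatives were DESeq2 1.42.0, RLE size factors, keeping every gene, requiring 1 CPM in at least 4 libraries, a replicate block, additive models, counts divided by 4, and leaving out libraries. Members and lists were chosen with earlier results of these data known. Values and names of some marker genes, 1 that rose among them, are not reported here.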

Additional observations from a re-analysis of the deposited data

How the results depend on the processing

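Of the 9 members, 1 was called between IL27v and EV. That number was 3 with DESeq2, 5 without a low-count filter, and 0 with the replicate block, with library set as a term, without the set B libraries and without the 4 media libraries (the last chosen after seeing the data), and 0 to 3 on leaving out each library. No pairing of samples by replicate number was apparent: 55 correlations of replicate deviations between groups ran from -0.671 to 0.517, with 13 over 0.1. A weak pairing could be missed by this check. The Ccl12 difference turned to -0.029 with macrophage markers as a term, -0.26 without the 4 media libraries, -0.02 without IL27v media 2 and -0.24 without IL27v cabozantinib 2 (-0.24 to 0.42 on leaving out each library), and the Ccl4 difference to -0.050 without the set B libraries and -0.039 without IL27v cabozantinib 2 (-0.039 to 0.54). Over both vectors 0 members were called for each exposure. Without a filter there was 1 for cabozantinib, docetaxel and anti-PD-L1 and 2 for the combination (948, 1843, 506 and 353 of all genes). DESeq2 gave 1 for the combination (58 of all genes). For IL-27, leaving out IL27v media 2 moved both the member count and the count over all genes. In EV (0 called) no filter gave 1 for cabozantinib and anti-PD-L1, 2 for IL-27 and 3 for the combination (87, 162, 218 and 469 of all genes). Within conditions (0 called) DESeq2 gave 3 and no filter 12. In IL27v (1 called over the 5 exposures) DESeq2 gave 3, RLE size factors 0, no filter 16, the replicate block 0, and leaving out a library 0 to 2. Of the 45 interactions (0 called) DESeq2 gave 1 and no filter 18. For single conditions, IL27v exposures and interactions, calls over all genes were not counted under the alternatives. These member counts therefore have no share beside them and are not read as results about the members. Over all genes the vector called 722, and 1944 with DESeq2, 1631 without a filter, 569 with the replicate block, 0 with library set as a term, 285 without the set B libraries, 911 without the 4 media libraries and 394 to 1244 on leaving out each library. The cause of these shifts was not tested.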
